A study of Mus musculus with 4 samples.

Results

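Genes of the extracellular adenosine pathway and Cd38, a gene that feeds into it, were chosen by symbol: Entpd1, Nt5e, Cd38, Adora2a, Adora2b and Ada, 6 of the 32285 genes counted. They were followed in CT26 tumours, which grow from a Balb/c colon carcinoma cell line, in mice of 9 weeks. One group had received liproxstatin-1, an inhibitor of the lipid peroxidation that drives ferroptosis, for 8 days (2 libraries), and the other was labelled control (2 libraries); what the control mice received is not given in the sources used here. Leukocytes were taken from the tumours with magnetic beads against CD45 and sequenced as single cells from the 3′ end of their transcripts. The labels number the 2 libraries of each group without saying whether they are separate animals, so that every p-value below measures the spread between libraries, which may be technical.

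The matrices held 8659 and 9299 barcodes in the liproxstatin libraries and 4138 and 6996 in the control libraries, and between 83129874 and 168597163 unique molecular identifiers (UMIs, counted molecules) each. After filters, 25730 cells remained and 22910 of them were assigned to an immune class by marker genes. A class name stands for cells that passed a gate on such markers, so that the macrophages below are macrophage-like cells marked by genes such as C1qa and Apoe, and the neutrophils are neutrophil-like cells marked by genes such as S100a8 and Csf3r. Of the gated immune cells, 95.6% and 96.3% had a UMI of Ptprc, which encodes CD45, in the liproxstatin libraries, against 95.03% and 94.97% in the control libraries. The share of cells left without a class was 10.6% and 6.77% in the liproxstatin libraries, against 19.1% and 9.49% in the control libraries, and its part in the results was not tested. Pairs of libraries shared between 4 and 22 cell barcodes. A level is given as CPM, the UMIs of a gene per 1000000 UMIs of all cells of a class in 1 library, and a class was compared between groups only where each library held at least 20 of its cells. Because a 3′ count depends on the gene, levels are set against each other only within a gene.

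Extracellular adenosine is made from ATP that cells release. CD39, encoded by Entpd1, removes phosphates from ATP and ADP to give AMP, and CD73, encoded by Nt5e, turns AMP into adenosine. CD38, encoded by Cd38, consumes NAD and can feed the same route through a side branch that also ends in AMP. Adenosine acts on cells through receptors coupled to cyclic AMP, of which the one encoded by Adora2a has high affinity and is used by lymphocytes and the one encoded by Adora2b has low affinity, and adenosine deaminase (Ada) removes adenosine by turning it into inosine. In tumours the route is known for dampening T cells and natural killer (NK) cells.

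In GRCm38 the genes lie as follows. Entpd1 lies on chromosome 19 from 40612366 to 40741602, on the plus strand. Nt5e lies on chromosome 9 from 88327197 to 88372092, on the plus strand. Cd38 lies on chromosome 5 from 43868553 to 43912375, on the plus strand. Adora2a lies on chromosome 10 from 75316877 to 75334784 and Adora2b on chromosome 11 from 62248984 to 62266453, both on the plus strand. Ada lies on chromosome 2 from 163726584 to 163750239, on the minus strand. All 6 are protein-coding in GENCODE M21. Cd38 overlaps 2 other counted genes, Gm16014 on its own strand and Gm16015 on the opposite one, and Entpd1 overlaps the counted gene AC166063.1 on its own strand. Whether the counting used the strand is not given in the sources used here.

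RefSeq promoter sequence was at hand for 5 of the 6 genes. Those of Cd38 and Nt5e are shown because these 2 genes rose in liproxstatin mononuclear phagocytes. Each runs 5′ to 3′ from 250 bases before to 50 bases after the RefSeq start, in build GRCm38.p6, chr5:43868559-43868858 for Cd38 and chr9:88327359-88327658 for Nt5e, both on the plus strand. Both windows begin after the GENCODE gene starts, 43868553 for Cd38 and 88327197 for Nt5e. They therefore hold no sequence upstream of the genes as placed above. Capitals mark matches, on either strand, to 6 motifs, the TATA box as TATAAA, the CCAAT box as CCAAT, the AP-1 site as TGANTCA, the cyclic AMP response half-site as TGACG and the hypoxia response core as ACGTG or as GCGTG.
Cd38: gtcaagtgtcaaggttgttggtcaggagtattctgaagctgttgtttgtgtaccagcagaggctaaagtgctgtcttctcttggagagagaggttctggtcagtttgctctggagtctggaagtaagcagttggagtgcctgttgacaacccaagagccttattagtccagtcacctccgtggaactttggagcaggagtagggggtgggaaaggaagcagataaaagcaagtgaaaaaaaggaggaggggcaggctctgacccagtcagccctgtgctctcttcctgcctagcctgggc
Nt5e: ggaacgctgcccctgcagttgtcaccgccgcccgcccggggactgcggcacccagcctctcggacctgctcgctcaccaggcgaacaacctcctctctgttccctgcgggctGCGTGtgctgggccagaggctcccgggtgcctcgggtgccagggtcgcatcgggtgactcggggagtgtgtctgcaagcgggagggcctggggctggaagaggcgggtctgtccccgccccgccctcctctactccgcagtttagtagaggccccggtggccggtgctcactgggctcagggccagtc
The Cd38 window held none of the 6 motifs. The Nt5e window held GCGTG once, starting at position -138 from the start, and 32.4% of the 32851 RefSeq promoters of the same length held that motif. A match is a description of the letters and not a binding site.

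The 6 genes differed in where they were expressed. Entpd1 marked neutrophils, Adora2b monocytes and type 2 dendritic cells, Adora2a NK and T cells, Ada NK cells, gamma-delta T cells and macrophages, and Cd38 B cells and plasmacytoid dendritic cells, whereas Nt5e was spread over CD4 T cells, monocytes and CD8 T cells. These levels over 13 classes and 4 libraries are a description with no test.

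**Figure D1:**
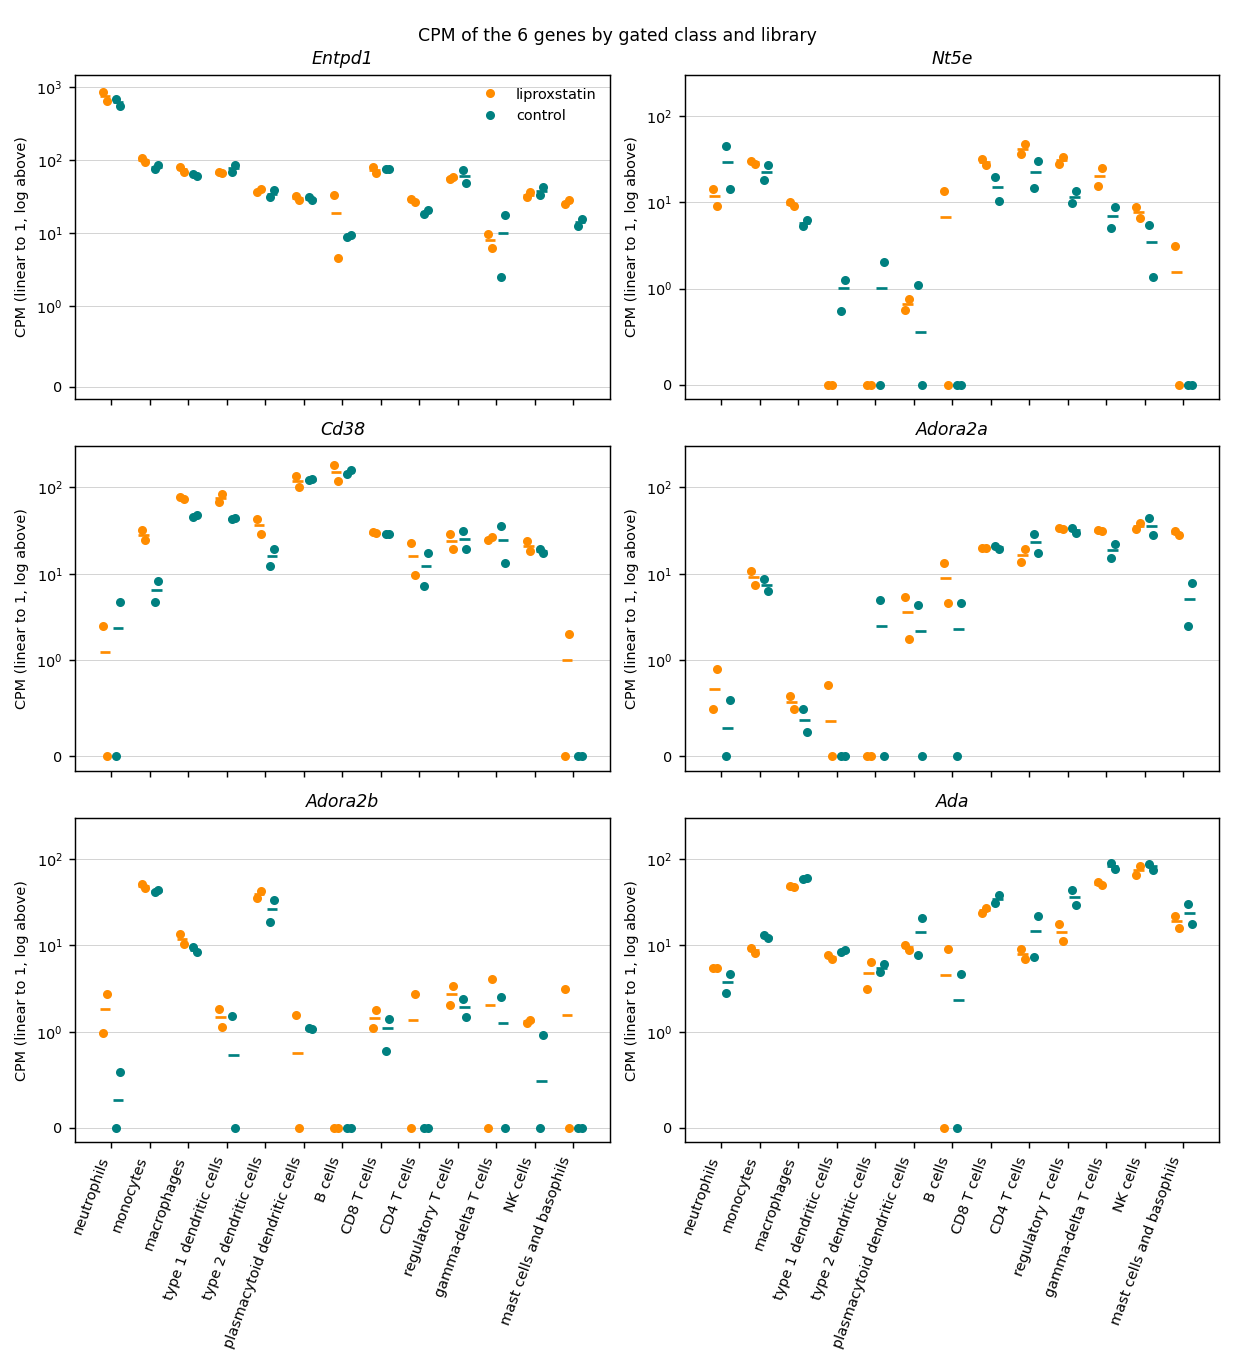
CPM of each of the 6 genes (vertical axis, linear to 1 and logarithmic above) in 13 gated classes, with 1 point for each library, liproxstatin left and control right of each class, and a short line at the mean of 2 libraries. Entpd1 in neutrophils lies between 555 and 851 CPM, above every other class, and Adora2b is between 41.8 and 51.1 CPM in monocytes.

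Entpd1 was at 851 and 653 CPM in liproxstatin neutrophils, against 699 and 555 CPM in control neutrophils. The groups overlapped. Next in order were monocytes, with a median of 89.8 CPM over the 4 libraries, and the ranges of these 2 classes did not overlap. The median was 76.3 CPM in CD8 T cells, 68.8 in type 1 dendritic cells and 67.0 in macrophages, neighbours whose ranges overlapped each other. When cells were thinned to 2000 UMIs, which left out 60 and 58 shallower neutrophils in liproxstatin libraries and 3 and 33 in control libraries, 70.4% and 63.5% of liproxstatin neutrophils had an Entpd1 UMI, against 65.6% and 57.3% of control neutrophils. In gamma-delta T cells, the class lowest in Entpd1, this share was 1.47% in liproxstatin replicate 1, and 0 of 58 cells in liproxstatin replicate 2, 0 of 34 in control replicate 1 and 0 of 32 in control replicate 2, which allow shares of up to 5.17%, 8.82% and 9.38% (3 counts, counting error only), at median depths of 7222 to 11618 UMIs per cell against 2794 to 3748 in neutrophils.

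Entpd1 passed the test in 0 of the 13 classes and pools where it was tested by edgeR. Mononuclear phagocytes are the pool of macrophages, monocytes and cells that passed the pool's gate but were assigned to neither. In this pool Entpd1 was at 83.4 and 71.7 CPM in liproxstatin libraries and 65.4 and 63.5 CPM in control libraries. The groups did not overlap there, as was the case for 48.0% of the genes tested in this pool, and the log2 fold change of 0.31 ± 0.09 (SE, n = 2 each) had an adjusted p of 0.112 by edgeR's quasi-likelihood test with Benjamini-Hochberg adjustment. In neutrophils the log2 fold change was 0.29 ± 0.25 (adjusted p = 0.879, edgeR). With no filter on low counts Entpd1 was called in mononuclear phagocytes (edgeR, adjusted p = 0.0114), where that setting called all 6 genes, and in macrophages (adjusted p = 0.0237). The share of all genes called in that setting is not given here.

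Nt5e had its highest median in CD4 T cells, 33.2 CPM, followed by monocytes at 27.1, CD8 T cells at 23.2 and regulatory T cells at 20.6, neighbours whose ranges overlapped. The CD4 T cells numbered 36 to 100 a library and held only 4 to 34 Nt5e UMIs. Nt5e was at 14.9 and 13.3 CPM in liproxstatin mononuclear phagocytes, against 8.33 and 9.38 CPM in control ones. Both liproxstatin libraries were above both control libraries, and Nt5e rose with a log2 fold change of 0.72 ± 0.10 (SE, n = 2 each; edgeR quasi-likelihood, adjusted p = 0.00923). In macrophages alone it was at 10.0 and 9.12 CPM, against 5.32 and 6.25 CPM in control, a rise of 0.76 ± 0.11 on the log2 scale (edgeR, adjusted p = 0.00900). Of the 6 genes, 2 were called higher in mononuclear phagocytes, where 1.13% of 14725 genes tested were called higher and 0.822% lower, and 2 in macrophages, where 1.33% of 14398 were called higher and 0.833% lower. In monocytes Nt5e was at 30.2 and 27.5 CPM in liproxstatin libraries, against 18.2 and 26.6 CPM in control libraries, and was not called (0.44 ± 0.17; edgeR, adjusted p = 0.517). Leaving out 1 library, as is done at several genes below, leaves 1 library against 2, so that the spread comes from the other group and the lone library is assumed to vary like it. In monocytes this gave Nt5e log2 fold changes of 0.23 to 0.72, with an adjusted p of 0.043 without control replicate 2 (edgeR).

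Among the 12 clusters of mononuclear phagocytes, cluster 12, led by Cxcl2, Spp1, Ier3, Fn1 and Thbs1, had the highest level, 91.2 and 95.9 CPM in liproxstatin libraries and 98.6 and 70.1 CPM in control libraries, which overlapped. Cluster 12 made up 7.72% and 6.61% of liproxstatin mononuclear phagocytes, against 3.65% and 6.15% of control ones, and gave between 25.5% and 31.0% of the class's Nt5e UMIs. With equal numbers of cells per library and cluster, a setting chosen after seeing the data, the log2 fold change of Nt5e was 0.36 in mononuclear phagocytes (edgeR, adjusted p = 0.175) and 0.53 in macrophages (adjusted p = 0.0758). That setting left 1885 cells per library in mononuclear phagocytes and 1376 in macrophages. With equal numbers of cells per library alone, 2030 and 1521 cells, Nt5e stayed called, at 0.60 in mononuclear phagocytes (edgeR, adjusted p = 0.0239) and 0.73 in macrophages (adjusted p = 0.0131). The Nt5e call in mononuclear phagocytes was also lost without liproxstatin replicate 1 (edgeR, adjusted p = 0.158) and without liproxstatin replicate 2 (adjusted p = 0.0819), and that in macrophages without liproxstatin replicate 1 (adjusted p = 0.0663) and with classes taken from clusters (adjusted p = 0.0603). Within clusters, Nt5e was higher without overlap in 6 of 12, and 5.79% of the genes tested were higher without overlap in at least 6 of 12.

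In CD8 T cells Nt5e was at 31.9 and 26.9 CPM in liproxstatin libraries, against 19.4 and 10.4 CPM in control libraries. The groups did not overlap, though the share of all genes without overlap in this class is not given here. The 2 control libraries lay far apart. The log2 fold change of 1.08 ± 0.28 was not called (edgeR, adjusted p = 0.237), whereas DESeq2 gave an adjusted p of 0.0325 and leaving out control replicate 1 gave 5e-12 by edgeR. Leaving out each of the 4 libraries gave log2 fold changes of 0.59 to 1.52, and the other 3 leave-outs made no call. In neutrophils Nt5e was at 14.3 and 9.07 CPM in liproxstatin libraries, against 44.5 and 14.04 CPM in control libraries, from 10 to 29 UMIs a library, a difference that was not called (log2 fold change -0.85 ± 0.51; edgeR, adjusted p = 0.782, or 0.0492 without control replicate 2). The effect in mononuclear phagocytes minus that in neutrophils was 1.47 ± 0.51 on the log2 scale (edgeR interaction term, adjusted p = 0.415, or 0.0393 without control replicate 2), and minus that in CD8 T cells -0.42 ± 0.32 (adjusted p = 0.861, or 0.00631 without control replicate 1). The log2 fold changes were 1.33 ± 0.44 in regulatory T cells (edgeR, adjusted p = 0.413) and 1.30 ± 0.52 in NK cells (adjusted p = 0.77). Regulatory T cells held 27 and 29 Nt5e UMIs in liproxstatin libraries and 4 and 9 in control libraries. NK cells held 55 and 33 in liproxstatin libraries and 20 and 7 in control libraries. Leaving out 1 library gave 0.53 to 2.49 in NK cells, called without control replicate 1 (edgeR, adjusted p = 1.96e-05) and not in the other 3 leave-outs.

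Cd38 rose in liproxstatin tumours in macrophages, monocytes, their pool and a pool of dendritic cells without plasmacytoid ones. In macrophages it was at 77.4 and 74.2 CPM in liproxstatin libraries, against 45.4 and 47.4 CPM in control libraries. The 2 libraries of each group lay close together. In the pool of mononuclear phagocytes 48.0% of genes tested had no overlap between groups, and Cd38 in macrophages had none either. The log2 fold change was 0.74 ± 0.08 (SE, n = 2 each; edgeR quasi-likelihood, adjusted p = 0.00131), and it kept its call in all 13 alternatives, leaving out any 1 library included, with log2 fold changes of 0.66 to 0.76. With each cell thinned to 2000 UMIs, 13.5% and 11.3% of liproxstatin macrophages had a Cd38 UMI, against 7.17% and 8.10% of control macrophages. The unthinned shares were 65.4% and 61.8% in liproxstatin macrophages, against 49.0% and 54.2% in control macrophages. The median depth was lower in liproxstatin macrophages, at 29030 and 24081 UMIs, against 31980 and 33789 UMIs in control macrophages. In neutrophils, where Cd38 had a median of 1.24 CPM and cells a median depth of 2794 to 3748 UMIs, 0.593% of cells in liproxstatin replicate 1 and 0.509% in control replicate 2 had a UMI after thinning, and 0 of 315 in liproxstatin replicate 2 and 0 of 90 in control replicate 1, which allow up to 0.952% and 3.33%.

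In monocytes Cd38 was at 32.1 and 24.9 CPM in liproxstatin libraries, against 4.76 and 8.34 CPM in control libraries. The groups were well apart, with 427 and 290 Cd38 UMIs in liproxstatin libraries against 29 and 72 in control libraries. The log2 fold change was 2.17 ± 0.24 (edgeR, adjusted p = 0.0184), and 1 of 6 genes was called in this class, where 0.192% of 10946 genes tested were called. The call was lost in 4 of 13 alternatives, among them without liproxstatin replicate 1 (edgeR, adjusted p = 0.0723), with predicted doublets kept (adjusted p = 0.0604) and with equal numbers of cells per library (adjusted p = 0.089). The summed level of the 8 macrophage markers in these monocytes also differed, 3104 and 3339 CPM in liproxstatin libraries against 2259 and 1705 CPM in control libraries, and its part in the result was not tested.

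**Figure D2:**
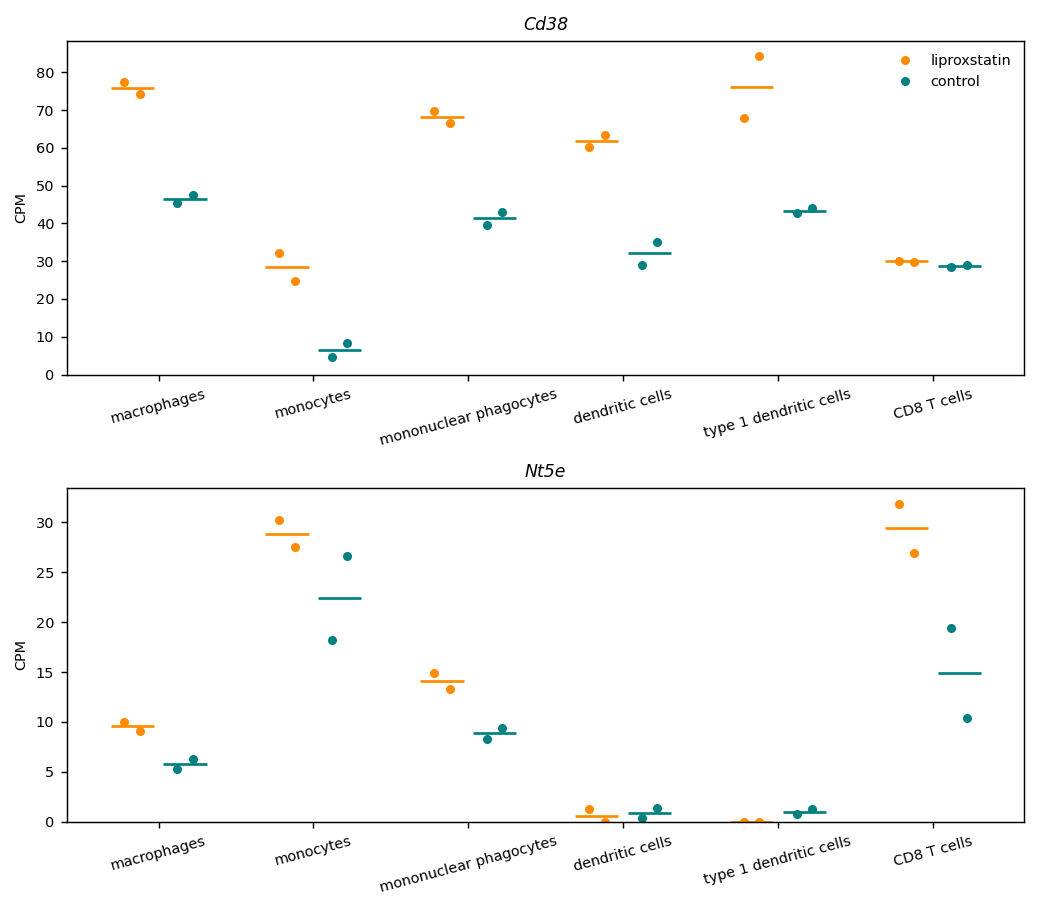
CPM of Cd38 and Nt5e (vertical axes, starting at 0) in 6 gated classes, with 1 point for each library, liproxstatin left and control right, and a line at the mean of 2 libraries. Cd38 in macrophages is at 74.2 to 77.4 CPM in liproxstatin libraries and 45.4 to 47.4 CPM in control libraries, while in CD8 T cells all 4 libraries lie between 28.6 and 30.2 CPM.

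In the pool of all mononuclear phagocytes, Cd38 was at 69.7 and 66.7 CPM in liproxstatin libraries, against 39.6 and 43.0 CPM in control libraries, a log2 fold change of 0.77 ± 0.08 (edgeR, adjusted p = 0.00216). Without liproxstatin replicate 1 the adjusted p was 0.0921, in a fit that called 0 of 15095 genes. Across the 12 clusters of this pool, Cd38 was higher without overlap in 11, by 1.42-fold or more. Of the genes tested, 0.278% were higher without overlap in at least 11 of 12. The clusters share libraries and are not replicates of the treatment. The exception was cluster 6, led by AY036118 and Ccl12, with 34.9 and 21.8 CPM in liproxstatin libraries against 17.1 and 24.7 CPM in control libraries. These came from 23 and 10 Cd38 UMIs in liproxstatin libraries and 7 and 21 in control libraries. All cells of cluster 6, ungated ones included, had a median depth of 1306 UMIs, so that cluster says little about Cd38. In cluster 15, led by Plac8, Thbs1 and Cytip, Cd38 was at 27.2 and 14.7 CPM in liproxstatin libraries, from 158 and 60 UMIs, against 1.35 and 6.22 CPM in control libraries, from 2 and 17 UMIs. In cluster 12 it was at 42.8 and 32.0 CPM in liproxstatin libraries against 6.48 and 11.1 CPM in control libraries. With equal numbers of cells per library and cluster, Cd38 was still called in mononuclear phagocytes, macrophages and monocytes.

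**Figure D3:**
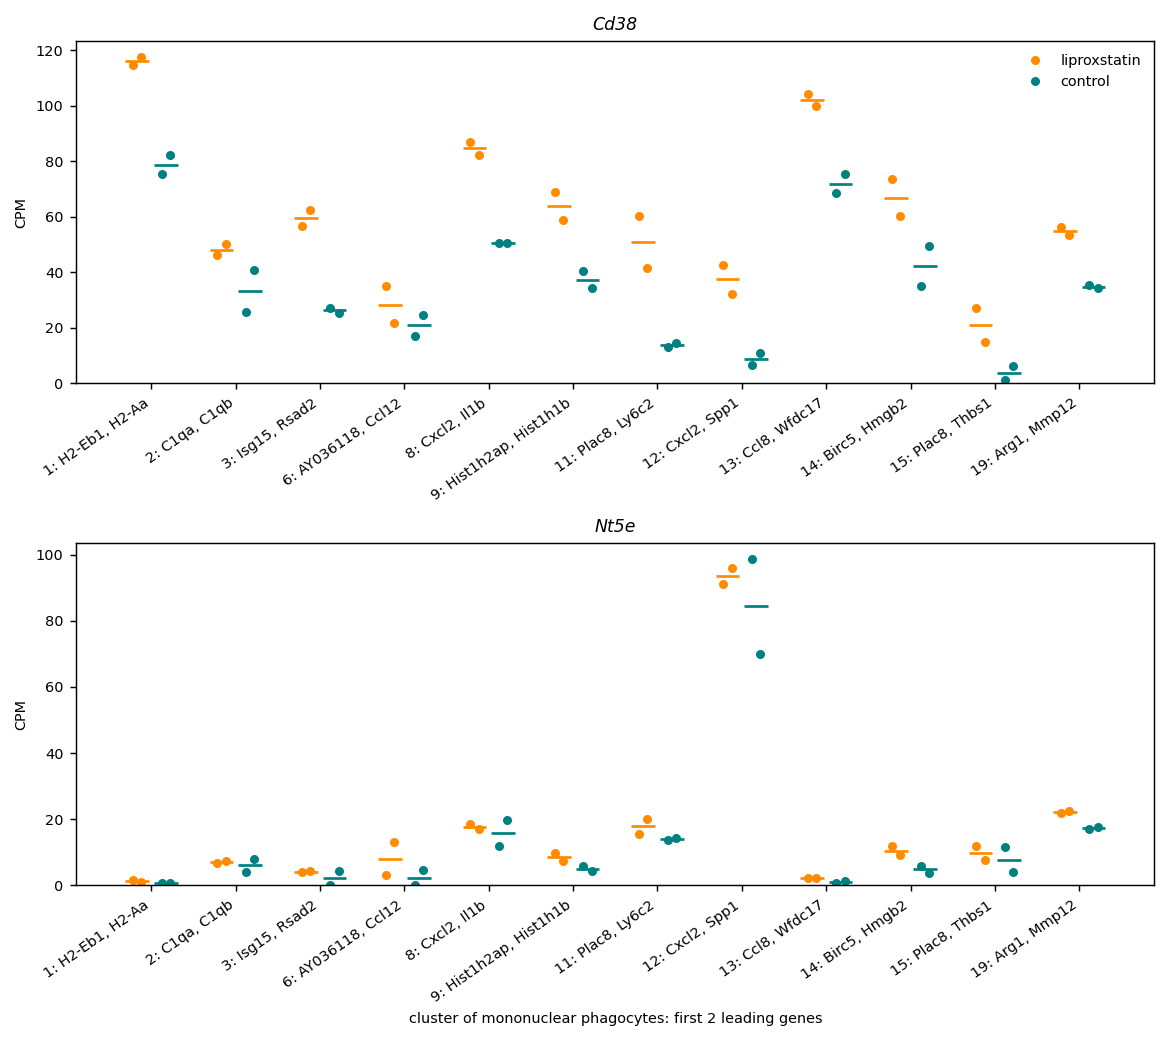
CPM of Cd38 and Nt5e (vertical axes, starting at 0) in 12 clusters of mononuclear phagocytes, named by their first 2 leading genes, with 1 point for each library, liproxstatin left and control right, and a line at the mean of 2 libraries. Cd38 is higher without overlap in 11 of 12 clusters, and Nt5e is highest in cluster 12, where the groups overlap.

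The pool of dendritic cells holds type 1, type 2 and migratory dendritic cells and leaves out plasmacytoid ones. In this pool Cd38 was at 60.1 and 63.3 CPM in liproxstatin libraries, against 29.1 and 35.1 CPM in control libraries. That was a rise of 0.98 ± 0.16 on the log2 scale (edgeR, adjusted p = 0.028), where 0.138% of 9443 genes tested were called. The call was lost in 5 of 12 alternatives, among them with DESeq2 (adjusted p = 0.0652), with equal numbers of cells per library (edgeR, adjusted p = 0.357), and without liproxstatin replicate 1 or without liproxstatin replicate 2 (adjusted p = 0.199 each). In type 1 dendritic cells it was at 67.8 and 84.4 CPM in liproxstatin libraries against 42.7 and 44.1 CPM in control (0.82 ± 0.19; edgeR, adjusted p = 0.131), and in type 2 dendritic cells at 43.4 and 29.1 CPM in liproxstatin libraries against 12.4 and 19.4 CPM in control (1.25 ± 0.37; adjusted p = 0.402, or 0.032 without control replicate 2).

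Cd38 was called in 0 lymphocyte classes by edgeR or DESeq2, with unadjusted p above 0.05 in each. In CD8 T cells Cd38 was at 30.2 and 29.7 CPM in liproxstatin libraries and 28.6 and 28.9 CPM in control libraries, a log2 fold change of 0.06 ± 0.13 (edgeR, adjusted p = 0.919). The difference between the effect in mononuclear phagocytes and that in CD8 T cells was 0.69 ± 0.12 on the log2 scale and passed its own test (edgeR interaction term, adjusted p = 0.00858), where 0.402% of 14423 genes were called. Without liproxstatin replicate 1 its adjusted p was 0.113. The classes highest in Cd38 overlapped between groups. B cells were at 182 and 118 CPM in liproxstatin libraries and 144 and 158 CPM in control libraries, from only 20 to 34 cells and 16 to 34 Cd38 UMIs a library. Plasmacytoid dendritic cells were at 135 and 102 CPM in liproxstatin libraries and 120 and 124 CPM in control libraries. The log2 fold changes of these 2 classes were -0.02 ± 0.33 and -0.02 ± 0.17 (edgeR, adjusted p = 0.998 and 0.989).

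**Figure D4:**
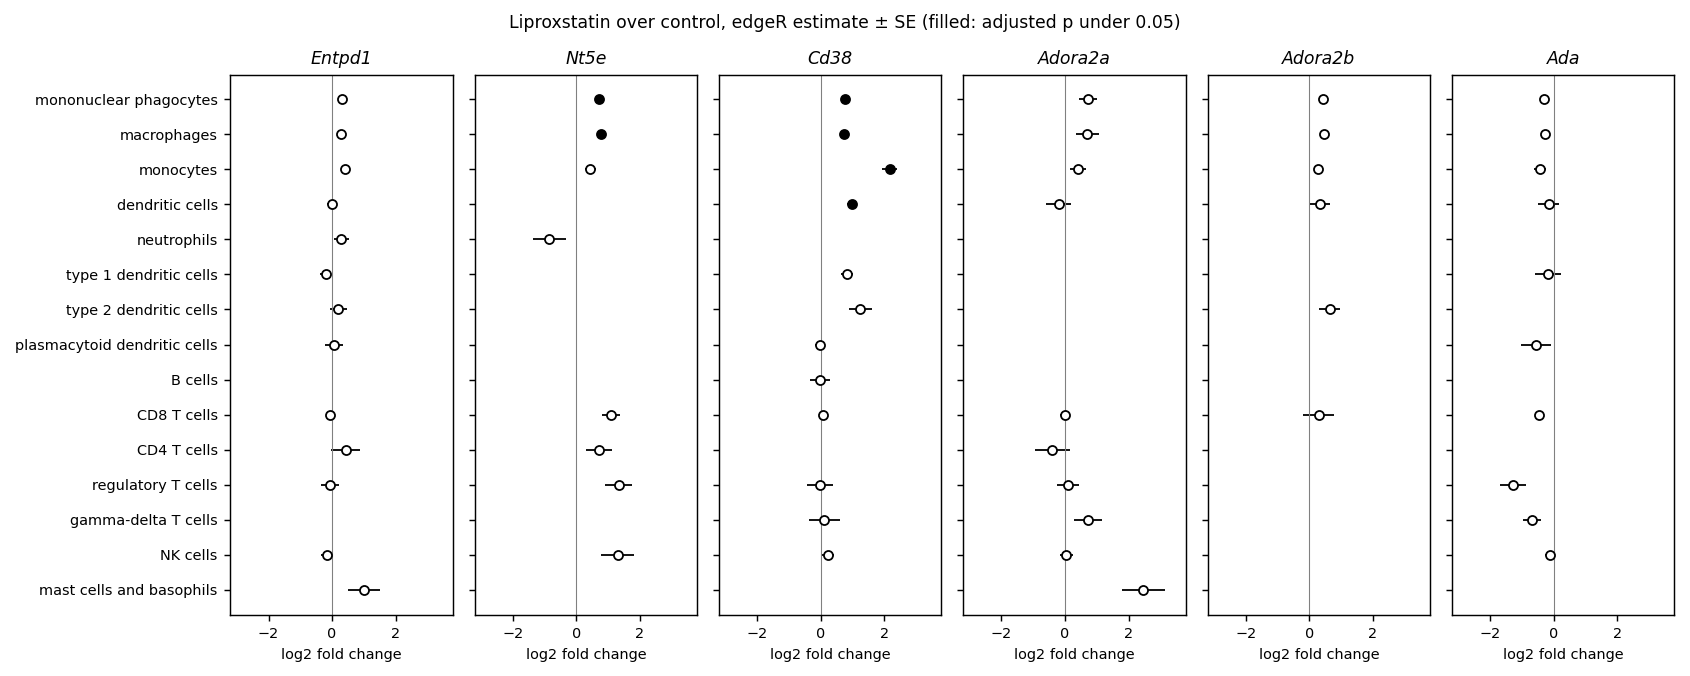
Log2 fold change of liproxstatin over control for each of the 6 genes (horizontal axes) in the classes where it could be tested (rows), as edgeR estimates with their SE as bars and filled points where the adjusted p is under 0.05. The filled points are those of Cd38 in 4 classes and of Nt5e in 2.

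Among the 13 classes Adora2a was highest in NK cells, with a median of 36.0 CPM, and in regulatory T cells, with 33.4 CPM, which overlapped, followed by gamma-delta T cells at 26.6, CD8 T cells at 19.9 and CD4 T cells at 18.4 CPM. Macrophages were at a median of 0.494 CPM. Migratory dendritic cells, of which control replicate 1 held only 15, were at 73.0 and 63.4 CPM in liproxstatin libraries and 82.1 and 41.8 CPM in control libraries. They are not one of the 13 classes and were not tested on their own. In CD8 T cells Adora2a was at 19.9 and 19.9 CPM in liproxstatin libraries and 21.2 and 19.2 CPM in control libraries. In mast cells and basophils it was at 31.3 and 28.1 CPM in liproxstatin libraries, from 10 and 14 UMIs, against 2.50 and 7.80 CPM in control libraries, from 1 and 4 UMIs. That difference, 2.46 ± 0.67 on the log2 scale, was not called (edgeR, adjusted p = 0.204). In mononuclear phagocytes the log2 fold change was 0.73 ± 0.28 (edgeR, adjusted p = 0.276), at 2.20 and 1.55 CPM in liproxstatin libraries and 1.49 and 0.902 CPM in control libraries. Leaving out 1 library gave 0.35 to 1.12, called without control replicate 1 (edgeR, adjusted p = 0.000386) and not in the other 3 leave-outs.

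Adora2b was a gene of monocytes, with a median of 45.4 CPM, and of type 2 dendritic cells, with 34.4 CPM, which overlapped. Macrophages came next at 9.94 CPM without overlapping type 2 dendritic cells, and no other class had a median above 2.24 CPM. Mononuclear phagocytes gave 95.8% and 93.7% of its UMIs in liproxstatin libraries and 95.5% and 92.7% in control libraries. In monocytes it was at 51.1 and 46.7 CPM in liproxstatin libraries, against 41.8 and 44.2 CPM in control libraries (log2 fold change 0.27 ± 0.12; edgeR, adjusted p = 0.567). Among the 12 clusters of mononuclear phagocytes it was higher without overlap in 5, lower without overlap in 2 and overlapping in 5. The share of all genes with such counts is not given here. Highest of them was cluster 12, which was lower in liproxstatin libraries, at 49.7 and 54.8 CPM against 86.4 and 60.9 CPM in control libraries. In mononuclear phagocytes as a whole Adora2b was at 19.4 and 15.3 CPM in liproxstatin libraries and 14.5 and 11.9 CPM in control libraries (0.44 ± 0.15, edgeR, adjusted p = 0.214). It was called there with no filter on low counts and without control replicate 1 (edgeR, adjusted p = 0.000208), and likewise in macrophages without control replicate 1 (adjusted p = 0.0011), where its adjusted p was 0.155 with all libraries. The other 3 leave-outs called it in neither, and the log2 fold changes ran over 0.27 to 0.62 in mononuclear phagocytes and 0.26 to 0.63 in macrophages.

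Ada was highest in NK cells, with a median of 79.6 CPM, and in gamma-delta T cells, with 65.8 CPM, which overlapped. Macrophages followed at 53.2 CPM and overlapped with gamma-delta T cells. In macrophages it was at 48.4 and 47.3 CPM in liproxstatin libraries, against 58.1 and 59.7 CPM in control libraries. The groups did not overlap, as was the case for 48.0% of the genes tested in the pool of mononuclear phagocytes. The log2 fold change of -0.26 ± 0.08 was not called (edgeR, adjusted p = 0.126), nor was that of mononuclear phagocytes, -0.30 ± 0.08 (adjusted p = 0.0844), although DESeq2 gave an adjusted p of 0.0243 for that pool. In regulatory T cells it was at 17.6 and 11.4 CPM in liproxstatin libraries, against 43.5 and 29.6 CPM in control libraries (-1.28 ± 0.40; edgeR, adjusted p = 0.348), from 10 to 20 UMIs a library. In CD8 T cells it was at 23.9 and 27.4 CPM in liproxstatin libraries, against 30.9 and 38.8 CPM in control libraries (-0.46 ± 0.14; edgeR, adjusted p = 0.168, or 0.0205 without control replicate 1). Ada was called in 0 of the 10 classes and pools where it was tested by edgeR, with unadjusted p under 0.05 in mononuclear phagocytes, macrophages, monocytes, CD8 T cells, regulatory T cells and gamma-delta T cells. The share of all genes with an unadjusted p under 0.05 in these classes is not given here. DESeq2 called it in mononuclear phagocytes. The pools share cells with their parts. Ada was lower without overlap in 5 of 12 clusters of mononuclear phagocytes, where 16.7% of genes tested were lower without overlap in at least 5.

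In neutrophils 0 of the 6 genes were called by edgeR: 0 of 2 tested had an unadjusted p under 0.05 and DESeq2 called 0. Of all 6003 genes tested there, 0.0666% were called. In CD8 T cells 0 of 6 were called by edgeR, 2 had an unadjusted p under 0.05 and DESeq2 called 1, where 0.852% of 11620 genes were called. In the other 9 classes edgeR called 0 members and DESeq2 0. The members with an unadjusted p under 0.05 numbered 2 in regulatory T cells, 1 each in type 1 and type 2 dendritic cells, gamma-delta T cells, NK cells and mast cells and basophils, and 0 in plasmacytoid dendritic cells, CD4 T cells and B cells. The shares called in this paragraph count adjusted p under 0.05. The share of all genes with an unadjusted p under 0.05 is not given here, so the unadjusted counts are not read as a result. The share of all genes called was 0.244% in type 1 dendritic cells, 0.0293% in type 2 dendritic cells, 0.202% in plasmacytoid dendritic cells, 0.0354% in CD4 T cells and 0.419% in regulatory T cells. It was 0.738% in gamma-delta T cells, 0.0196% in NK cells, 0.0888% in B cells and 0.6% in mast cells and basophils.

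The wider pathway was read from 6 lists of genes, which were not checked by leaving out libraries. In mononuclear phagocytes, of 13 genes of cyclic AMP signalling and response all were tested, 2 rose and 0 fell, where 1.13% of all genes tested were called higher and 0.822% lower, with a median log2 fold change of 0.53 beside 0.00 over all genes tested. They were Crem, a transcription factor induced by cyclic AMP, at 36.7 and 30.4 CPM in liproxstatin libraries against 24.9 and 23.1 CPM in control libraries (0.53 ± 0.10; edgeR, adjusted p = 0.0288), and Pde4d, a cyclic AMP phosphodiesterase, at 13.1 and 9.58 CPM in liproxstatin libraries against 6.12 and 7.11 CPM in control libraries (0.82 ± 0.15; adjusted p = 0.0376). In monocytes, where 0.192% of all genes tested were called, 1 of these 13 rose, the phosphodiesterase gene Pde4b, at 141 and 125 CPM in liproxstatin libraries against 85.3 and 77.1 CPM in control libraries (0.80 ± 0.12; edgeR, adjusted p = 0.0436). In the same pool 12 genes of adenosine uptake and clearance, 4 other ectoenzymes and 1 gene of other adenosine receptors were tested. So were 11 genes of ATP release and P2 receptors and 9 of NAD supply and use. Of the genes of these lists, 0 rose and 0 fell in mononuclear phagocytes by edgeR. In CD8 T cells 1 of the 6 tested genes of ATP release and P2 receptors rose, where 0.852% of all genes tested were called. It was P2ry10, at 143 and 116 CPM in liproxstatin libraries against 76.5 and 54.5 CPM in control libraries (1.00 ± 0.17; edgeR, adjusted p = 0.023). P2ry10 encodes a receptor for lysophospholipids. In plasmacytoid dendritic cells P2ry10 was the 1 of 7 tested genes of that list that rose (0.74 ± 0.16; edgeR, adjusted p = 0.0438), where 0.202% of all genes tested were called. In macrophages 2 of the 13 cyclic AMP genes rose, Crem and Pde3b, another phosphodiesterase gene (0.44 ± 0.09 and 0.43 ± 0.09; edgeR, adjusted p = 0.0287 and 0.0422), where 1.33% of all genes tested were called higher. In mast cells and basophils 1 of 9 tested cyclic AMP genes rose, the orphan nuclear receptor gene Nr4a2 (2.25 ± 0.38; edgeR, adjusted p = 0.0164), where 0.6% of all genes tested were called.

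Genes whose levels over the 52 class and library points were most like a member's were picked among 9250 genes, as a description over points that share libraries. The closest to Entpd1 was Etf1 (Pearson r = 0.897), to Nt5e Ppp1r18 (0.785), to Cd38 Hmgn1 (0.836), to Adora2b Spon1 (0.873) and to Ada Cacna1a (0.827).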

How the data were processed

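Each library has its own deposited matrix of raw UMI counts per gene and barcode. Cell Ranger 6.1.1 made these counts per the file headers, but version 4, with the build mm10, is what the submitters' processing notes give; which is right is not given in the sources used here. File names carry other replicate numbers than the labels, and the labels' numbers were used. The 6 genes, the pathway lists and the markers were chosen with earlier results of these data known.

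Cells with at least 200 genes and under 15% mitochondrial UMIs were kept. The cells scored highest by Scrublet were left out as doublets, in a share set by the number of barcodes of a library. This share was 6.93% and 7.44% in liproxstatin libraries and 3.30% and 5.59% in control libraries, so the filter differed between groups. Scrublet's own threshold called 142 and 181 cells in liproxstatin libraries and 1 and 2 in control libraries. Classes were gated per cell on the mean log level of their markers, and all but neutrophils needed at least 2000 UMIs per cell. T cells were parted further by whether a cell had any UMI of single marker genes. Clusters came from scanpy 1.11.5 (Leiden, resolution 1, members left out of the 2433 variable genes). UMIs were summed per library and class and tested with edgeR 4.0.16 (filterByExpr, TMM, quasi-likelihood, Benjamini-Hochberg over all genes tested in a class, threshold 0.05). The named genes are the 6 members, list genes past the threshold and the gene most correlated with each member, which for Adora2a is not reported here. The code was tested on simulated data. With 2 libraries against 2, an exact two-sided permutation test of 1 value cannot go below 0.3333. DESeq2 1.42.0 and other settings were alternatives.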

Additional observations from a re-analysis of the deposited data

Results flagged for a closer look

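The effect of liproxstatin on Cd38 differed between mononuclear phagocytes and CD8 T cells. The log2 fold change in mononuclear phagocytes exceeded that in CD8 T cells by 0.69 (interaction term of edgeR, adjusted p = 0.00858), with Cd38 at 69.7 and 66.7 CPM in liproxstatin mononuclear phagocytes against 39.6 and 43.0 CPM in control ones, and at 30.2 and 29.7 CPM in liproxstatin CD8 T cells against 28.6 and 28.9 CPM in control ones. It was flagged because the treatment effect differed between these 2 classes by its own test. That difference was called in 6 of 7 alternatives, and leaving out 1 library gave 0.65 to 0.75. The other such fit, mononuclear phagocytes minus neutrophils, called 0 of the 6 genes, Cd38 included. In neutrophils Cd38 had a median of 1.24 CPM.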

How the results depend on the processing

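Of the 6 genes, 2 were called in mononuclear phagocytes, against 6 with no filter on low counts, 1 with equal cells per cluster (chosen after seeing the data) and 0 to 4 leaving out 1 library. In macrophages 2 were called, against 4 with no filter, 1 with cluster classes, 1 with equal cells per cluster and 1 to 3 leaving out 1 library. In monocytes the 1 call became 0 with doublets kept and 0 with equal cells per library, and 0 to 2 leaving out 1 library. In dendritic cells the 1 call became 0 with DESeq2, 0 with equal cells per library and 0 to 1 leaving out 1 library. From 0 calls, 2 were made in CD8 T cells with no filter and 1 with DESeq2, 1 in type 1 dendritic cells with no filter and 1 with cluster classes, and 1 each in NK cells and in mast cells and basophils with no filter. The share of all genes called in each alternative setting is not given in this paragraph. The counts of members in these settings are therefore not read as a result about the 6 genes. Leaving out 1 library gave 0 to 2 in CD8 T cells, 0 to 1 in NK cells, neutrophils and type 2 dendritic cells, 0 to 3 for the difference from CD8 T cells and 0 to 1 for that from neutrophils. With the replicate block, 0 were called in monocytes (Cd38, adjusted p = 0.0817, edgeR) and 0 in dendritic cells (Cd38, adjusted p = 0.198), and 1 each in CD8 T cells, NK cells and regulatory T cells; Adora2b joined the calls in mononuclear phagocytes and macrophages. The labels do not say that a number pairs libraries. For each gene the log2 level of replicate 1 was taken as its deviation from the mean of its group. These deviations of control and liproxstatin replicate 1 correlated over genes by -0.0631 to 0.147 in 15 classes and pools. The log2 fold changes that turned sign, none of them called, were Ada in monocytes (0.11 with cluster classes), Ada in type 1 dendritic cells (0.44), Entpd1 in neutrophils (-0.0745) and Cd38 in CD8 T cells (-0.0318) with equal cells per library, and Cd38 in B cells (0.0361 with no filter, 0.0107 with DESeq2, 0.11 with equal cells per library). Leaving out 1 library gave ranges across 0 for Ada in NK cells (-0.31 to 0.0584), in dendritic cells (-0.28 to 0.0014) and in plasmacytoid dendritic cells (-1.06 to 0.30), for Cd38 in B cells (-0.27 to 0.24) and in plasmacytoid dendritic cells (-0.24 to 0.16), and for the difference in Nt5e between mononuclear phagocytes and CD8 T cells (-0.88 to 0.19). Of 156 levels, 16 moved by more than the spread between libraries, and 84 of 102 shares of cells did so without thinning. The cause was not tested. Genes with few UMIs, such as Adora2a in mast cells and basophils, are limited by depth.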
